A study of Rattus norvegicus with 16 samples.

Results

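Pfkfb1, Tpi1, Pkm, Pgam2 and Pgm1, 5 genes of carbohydrate breakdown, were followed in rat muscle that had lost its nerve supply. They were taken by gene symbol from the platform table, and each had 1 probe, giving 5 of the 1185 probes deposited, of which 1176 were tested. All samples were of EDL, the extensor digitorum longus of the lower leg and a muscle made mostly of fast-twitch fibres, from Brown-Norway rats aged 6 months. The control group was 8 arrays of EDL titled only as control, in animals with no allele or agent named. The other group was 8 arrays of EDL that had been denervated for 2 months. Rats were numbered 1 to 8 within each group, and the labels do not say how the nerve was cut, whether a number marks the same animal in both groups, or the sex of the animals. Whole muscle was measured, so fewer cells of a type and less RNA per cell cannot be told apart.

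Fast-twitch fibres are known for drawing much of their ATP from glycogen and glucose by glycolysis, and denervated muscle for losing mass and contractile activity. Pgm1, a phosphoglucomutase, links glycogen to glycolysis by turning glucose 1-phosphate into glucose 6-phosphate. Pfkfb1 makes and breaks down fructose 2,6-bisphosphate, the strongest known activator of phosphofructokinase, and its single gene is known to give liver, muscle and fetal enzymes from separate promoters. Further down the pathway Tpi1 (triosephosphate isomerase) interconverts the triose phosphates, Pgam2 (the muscle form of phosphoglycerate mutase) moves a phosphate group, and Pkm (muscle pyruvate kinase, M1 and M2 by alternative splicing) forms pyruvate and ATP. The probes are named by gene, and an array of this kind can also bind transcripts of close relatives.

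The deposited values lie on a logarithmic scale whose base is not given in the sources used here, so differences are in log units and no fold is printed. Array medians lay between 7.97 and 8.60 on 15 arrays, and that of control rat 6 was 6.98. The smallest value of an array, here its floor, was shared by 22 to 206 of its probes, and none of the 5 members was at the floor on any array. To set aside shifts of a whole array, each probe was also ranked among the 1176 probes of its array, as a percentile (0 lowest, 100 highest) or as a position counted from the brightest probe. A position shows a probe's signal against that of the other probes of its array. It can move because others move, and it does not compare the abundance of transcripts.

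The stretches of DNA just before the starts of 4 members are shown because Pfkfb1 and Pkm were the members whose ranks did not overlap between groups and Pgam2 and Pgm1 were the pair that varied together most closely. Each is the 250 bases before the start that RefSeq gives on build GRCr8, 5′ to 3′ along the gene's strand, and capitals mark matches on either strand to an E-box (CANNTG), the core bound by hypoxia-inducible factors (ACGTG), a GC box (GGGCGG) or a TATA box (TATAAA). An E-box of the form CACGTG would also hold the hypoxia core.
Pfkfb1 (chrX:22941926-22942175, plus strand): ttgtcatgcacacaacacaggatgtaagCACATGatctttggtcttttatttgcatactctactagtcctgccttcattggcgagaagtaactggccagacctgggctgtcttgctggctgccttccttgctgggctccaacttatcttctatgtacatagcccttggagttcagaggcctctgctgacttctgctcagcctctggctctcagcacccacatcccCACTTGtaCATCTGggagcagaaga
Pkm (chr8:68953385-68953634, plus strand): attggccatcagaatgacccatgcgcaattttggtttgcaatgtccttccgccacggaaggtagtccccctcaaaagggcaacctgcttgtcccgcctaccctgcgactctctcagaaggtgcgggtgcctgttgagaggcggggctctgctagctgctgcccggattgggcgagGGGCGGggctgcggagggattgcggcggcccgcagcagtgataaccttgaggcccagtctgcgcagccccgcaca
Pgam2 (chr14:84897875-84898124, minus strand): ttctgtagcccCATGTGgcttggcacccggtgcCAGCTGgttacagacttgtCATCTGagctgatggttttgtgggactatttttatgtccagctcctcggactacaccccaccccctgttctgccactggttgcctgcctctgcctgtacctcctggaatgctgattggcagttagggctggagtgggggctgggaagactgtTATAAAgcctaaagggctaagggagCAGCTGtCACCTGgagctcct
Pgm1 (chr5:119710484-119710733, plus strand): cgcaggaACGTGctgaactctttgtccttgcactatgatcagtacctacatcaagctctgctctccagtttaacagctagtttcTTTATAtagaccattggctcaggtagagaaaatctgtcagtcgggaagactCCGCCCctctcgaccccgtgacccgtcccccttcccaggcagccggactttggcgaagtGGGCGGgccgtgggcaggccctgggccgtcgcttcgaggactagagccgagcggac

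The Pgam2 stretch held 5 E-boxes, the motif of the myogenic factors MyoD and myogenin among many other proteins, and a TATA box starting 46 bases before the start. The Pfkfb1 stretch held 3 E-boxes, and those of Pkm and Pgm1 held none. An E-box occurred in 65.5% of 33469 rat promoter stretches of this length, a GC box in 30.5%, a TATA box in 12.9% and the hypoxia core in 16.6%. GC boxes were found before Pkm (1 match), Pgm1 (2) and Tpi1 (1), whose stretch on chromosome 4 also held 1 E-box. The hypoxia core was matched before Pgm1 alone among the 5 genes. A search for the consensus named MEF2 found no match before any of the 5, against 2.96% of all stretches. For Pfkfb1 the listed start lies 6138 bases inside the annotated gene and for Pkm 3904 bases inside, so other starts of these genes are not covered. These matches describe letters and were not tied to the values.

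Pfkfb1 was the member that fell. Its control values ran from 8.40 to 10.47 with a median of 9.62, and its denervated values from 5.04 to 8.69 with a median of 7.79. The groups met only where the low array of control rat 6 (8.40) lay below denervated rat 3 (8.42) and denervated rat 8 (8.69). Without that control array, every control value (8.96 or more) lay above every denervated one, a separation that 0.255% of all probes showed in this direction. The mean fell from 9.58 ± 0.69 to 7.45 ± 1.15 (SD, n = 8 per group), by 2.13 (SE 0.43, limma adjusted p = 6.76e-04, 95% interval -2.99 to -1.26). Limma called 6.29% of all probes (74 of 1176), 0.85% lower and 5.44% higher. The exact permutation test gave Pfkfb1 an adjusted p of 0.0196 and called 0.68% of probes lower, and in 0.085% the groups did not overlap in that direction. Other scalings moved the split of all calls from 64 higher and 10 lower to 35 and 27 (quantile normalisation) or 35 and 15 (centring on array medians). The denervated array of rat 7, at 5.04, was the lowest for Pfkfb1, and without it the difference was -1.78.

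**Figure D1:**
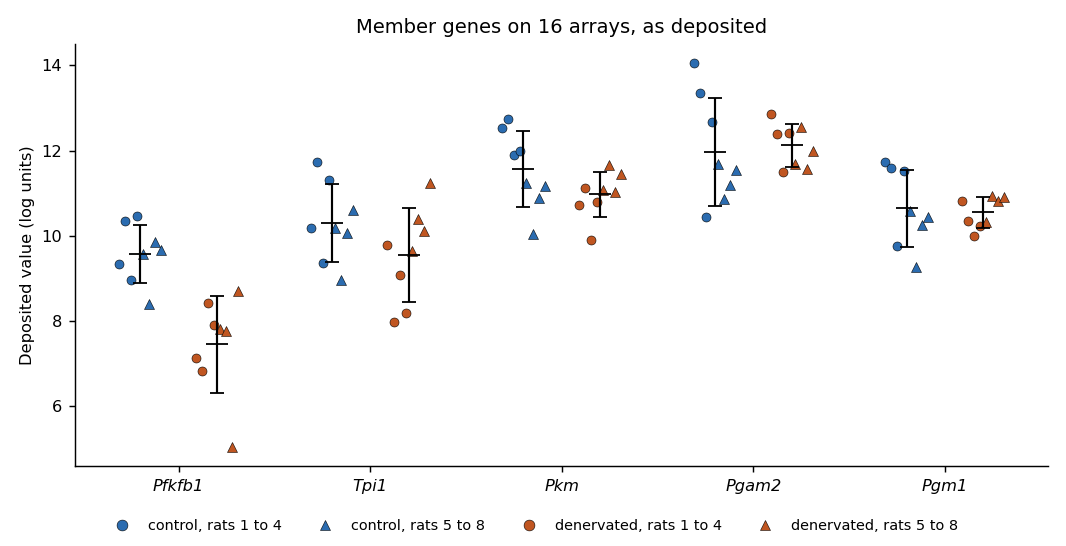
Deposited values in log units (vertical axis) of the 5 genes on 8 control (blue) and 8 denervated (orange) arrays; circles are rats 1 to 4, triangles rats 5 to 8, bars the mean and SD of each group. Pfkfb1 is lower in the denervated group by 2.13, while the groups of the other 4 genes lie over each other.

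By rank the separation of Pfkfb1 was complete. Its probe stood at positions 54 to 330 from the top on the control arrays (median 143) and at 485 to 1111 on the denervated arrays (median 808.5). As percentiles the means were 86.5 ± 7.60 and 35.8 ± 17.9, a difference of -50.7 points (SE 6.67, limma adjusted p = 1.56e-04). The exact permutation test gave an adjusted p of 0.00761, from an unadjusted p of 1.55e-04 that is the smallest 8 against 8 arrays allow. Limma on percentiles called 3.49% of probes, with 1.19% lower, and 0.765% had groups that did not overlap in this direction. A probe in the upper part of every control array thus lay near the middle or below it on the denervated ones.

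Over all 16 arrays the mean fall was larger for Pfkfb1 than for 6 other probes read within the same arrays. Pfkfb1 was set against them after its fall was seen. All 6 comparisons reuse its values, so they restate that fall and are not separate results. The difference between Pfkfb1 and each of 6 other probes was taken array by array, for the 4 other members and for Pfkfb2 and Pfkfb3, the genes of the heart and the inducible forms of the same enzyme. Against Pgm1 it shifted by -2.03 (exact permutation, p adjusted over the 6 comparisons 0.00373), against Pgam2 by -2.27 (adjusted exact p = 0.00591) and against Pfkfb3 by -1.95 (adjusted exact p = 0.00591). Against Pfkfb2 the shift was -1.76, against Pkm -1.54 and against Tpi1 -1.37, each with an adjusted exact p of 0.0155. The last 2 shifts were uneven over the rats. In rats 1 to 4 they were -0.56 against Pkm and -0.32 against Tpi1, and in rats 5 to 8 -2.51 and -2.43. Pfkfb2 itself differed by -0.36 (limma adjusted p = 0.719) and Pfkfb3 by -0.18 (limma adjusted p = 0.872).

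Pkm, at the last step of glycolysis, gave different answers on the 2 scales. As deposited, its control values ran from 10.05 to 12.75 (median 11.57) and its denervated values from 9.89 to 11.66 (median 11.06), so the groups overlapped. The means were 11.56 ± 0.90 and 10.97 ± 0.54 (SD, n = 8 per group), a difference of -0.59 (SE 0.41, limma adjusted p = 0.456) whose 95% interval, -1.41 to 0.23, holds 0. By position the groups were apart. The Pkm probe was between the 7th and the 14th brightest on every control array and between the 35th and the 171st on the denervated ones. Its mean percentile went from 99.3 ± 0.20 to 93.7 ± 4.11, a difference of -5.55 points. Limma, which lends each probe the spread of all others, did not call it (adjusted p = 0.252), and the exact permutation test did (adjusted p = 0.00761), at the smallest p it allows. The permutation test called 6.12% of all probes on percentiles, with 2.47% lower. Among the 75 probes with a mean percentile of 90 or more over all arrays, Pkm included, it called 10.7% lower. In 4% of them the groups did not overlap in that direction, and 40% had a lower mean percentile.

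**Figure D2:**
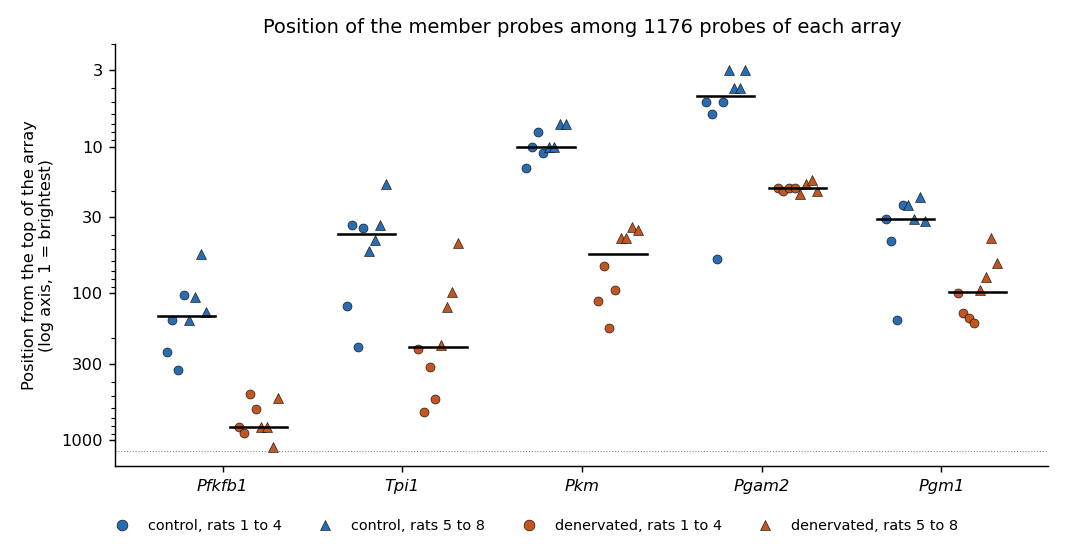
Position of each gene's probe among the 1176 probes of its array, counted from the brightest (vertical log axis, brightest at the top); symbols as for the deposited values, bars are group medians and the dotted line marks the last position. Pfkfb1 and Pkm do not overlap between groups, and Pgam2 lies at 17 to 21 on all 8 denervated arrays.

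Tpi1, the triosephosphate isomerase, overlapped between groups on either scale. Its control values ran from 8.97 to 11.74 (median 10.18) and its denervated values from 7.97 to 11.25 (median 9.71). The means of 10.30 ± 0.92 and 9.55 ± 1.10 differed by -0.75 (SE 0.41, limma adjusted p = 0.334, 95% interval -1.58 to 0.08). On the denervated arrays its probe stood anywhere from position 45 to 639, and on the control arrays from 18 to 231. The mean percentiles were 94.0 and 76.6, a difference of -17.5 points that neither limma (adjusted p = 0.190) nor exact permutation (adjusted p = 0.119) called. Leaving out denervated rat 2, which had the lowest value, moved the deposited difference to -0.52.

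Pgam2, the muscle phosphoglycerate mutase, was not lower as deposited. Its control values ran from 10.44 to 14.05 (median 11.62) and its denervated values from 11.50 to 12.87 (median 12.19), the denervated range lying inside the control range. The means were 11.97 ± 1.27 and 12.12 ± 0.51, a difference of 0.15 (SE 0.49, limma adjusted p = 0.924, 95% interval -0.83 to 1.12). The sign was not stable, since centring each array on its median gave -0.06 and leaving out control rat 1, 3 or 6 gave 0.44, -0.07 or -0.01. Its positions varied little on the denervated arrays, as did those of Ckm, the muscle creatine kinase, also near the top. The SD of the denervated percentiles was 0.106 for Pgam2 and 0.088 for Ckm. All 8 denervated arrays had the Pgam2 probe between position 17 and 21, and 7 of 8 control arrays had it between 3 and 6. The array of control rat 3 had it at 58, and that array alone made the groups overlap. The difference in mean percentile was -0.69 points (limma adjusted p = 0.906, exact permutation adjusted p = 0.597), and -1.26 points without control rat 3.

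Pgm1, at the entry from glycogen, behaved much like Pgam2. Control values ran from 9.27 to 11.74 (median 10.52) and denervated values from 10.0045 to 10.94 (median 10.58). The means of 10.64 ± 0.90 and 10.55 ± 0.36 differed by -0.10 (SE 0.38, limma adjusted p = 0.933, 95% interval -0.85 to 0.66). Without control rat 1, 2 or 4 the difference was above 0, at 0.06, 0.04 and 0.03, and without control rat 6 it was -0.29. By position Pgm1 stood at 22 to 44 on 7 control arrays and at 151 on that of control rat 3, against 42 to 159 on the denervated arrays. The mean percentiles of 96.2 and 91.4 differed by -4.85 points (limma adjusted p = 0.397, exact permutation adjusted p = 0.182).

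The 4 enzymes other than Pfkfb1 split by rat number. In rats 1 to 4 the deposited differences were -1.89 for Tpi1, -1.65 for Pkm, -0.80 for Pgm1 and -0.33 for Pgam2, and in rats 5 to 8 they were 0.39, 0.47, 0.61 and 0.63. All 4 turned from below to above 0, as 33% of all probes did, and the median over all probes also moved, from -0.03 to 0.55. After centring each array on its median, Tpi1 and Pkm stayed below 0 in rats 5 to 8, at -0.11 and -0.026, and Pgam2 and Pgm1 stood at 0.13 and 0.11. Pfkfb1 stood at -2.21 and -2.04 in the 2 sets of rats, and limma called it in each (adjusted p = 0.00557 and 0.0185). Of all 1176 probes limma called 12 lower in rats 1 to 4 and 8 lower in rats 5 to 8. The interaction term, the difference in rats 5 to 8 minus that in rats 1 to 4, was 2.28 for Tpi1 and 2.13 for Pkm (both with a limma adjusted p of 0.171), 1.41 for Pgm1 and 0.96 for Pgam2, and 0.17 for Pfkfb1 (limma adjusted p = 0.942). Limma called the interaction on 0 of 1176 probes (0% of them), with 159 at an unadjusted p under 0.05. The labels do not name the sets as batches, and no cause of the split was tested.

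As deposited, control values differed more between the sets than denervated values for Pkm, Pgam2 and Pgm1. Control means of Pkm were 12.29 ± 0.41 in rats 1 to 4 and 10.84 ± 0.55 in rats 5 to 8 (SD, n = 4 each), while the denervated means were 10.63 ± 0.52 and 11.31 ± 0.30. For Pgam2 the control means were 12.63 and 11.32 and the denervated means 12.30 and 11.95. For Pgm1 the control means were 11.15 and 10.14 and the denervated means 10.35 and 10.75. Tpi1 moved on both sides, with control means of 10.64 and 9.96 and denervated means of 8.75 and 10.34. On percentiles the denervated means differed more between the sets for Pkm and Pgm1, and the control means for Pgam2. Pkm stood at 99.2 and 99.4 in control and at 90.7 and 96.8 in denervated arrays. Pgm1 stood at 94.7 and 97.7 against 88.6 and 94.2, and Pgam2 at 98.5 and 99.8 against 98.4 and 98.5. Arrays also differed in the SD over all their probes, which centring on the median does not change. It was 1.26 to 1.82 on the control arrays of rats 1 to 4 and 1.19 to 1.58 on those of rats 5 to 8. On the denervated arrays it was 1.46 to 1.94 and 1.68 to 1.94. The part of this array-wide spread in the split was not tested. Rats 5 to 8 include the low array of control rat 6. Without it the interaction was 1.95 for Tpi1 and 1.86 for Pkm, and neither passed (limma adjusted p = 0.187 and 0.150).

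On percentiles all 5 members were lower in both sets, a pattern that 29.8% of all probes showed. Pfkfb1 differed by -41.9 points in rats 1 to 4 and -59.5 in rats 5 to 8, and Tpi1 by -27.7 and -7.30. Pkm differed by -8.51 and -2.60. Pgm1 differed by -6.17 and -3.53, and Pgam2 by -0.06 and -1.32. The lowest control percentile of Pkm was 98.9, and in rats 5 to 8 its 4 denervated arrays lay between 96.5 and 97.1. In rats 5 to 8 the percentiles of Pfkfb1, Pkm, Pgam2 and Pgm1 did not overlap between groups, and in rats 1 to 4 those of Pfkfb1, Tpi1 and Pkm did not. With 4 arrays a group such a separation, in the lower direction, was found for 7.06% of all probes in rats 5 to 8 and for 4.25% in rats 1 to 4. With 4 arrays a group limma on percentiles called none of the 5 in either set. The interaction on percentiles was called for none of the 5 (limma adjusted p from 0.593 to 0.954), with 98 probes at an unadjusted p under 0.05.

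**Figure D3:**
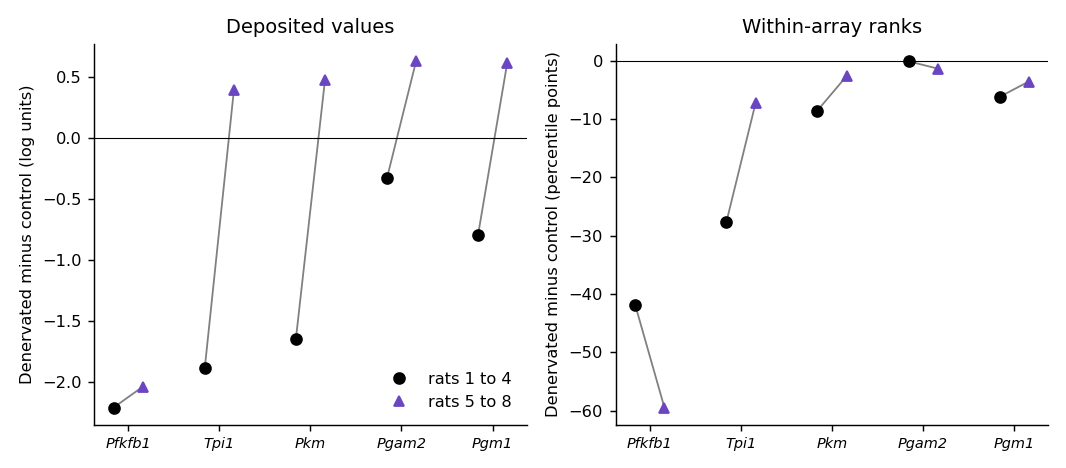
Difference between denervated and control means within rats 1 to 4 (black circles) and within rats 5 to 8 (purple triangles) for each gene, in log units as deposited (left) and in percentile points (right). The deposited differences of 4 genes cross 0 between the sets, with Tpi1 going from -1.89 to 0.39, and the percentile differences all lie below 0.

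Forcing all arrays to the same distribution, and so to the same spread (quantile normalisation), brought all 5 members past the threshold as lower. The differences were then -2.41 for Pfkfb1 (limma adjusted p = 8.89e-05), -1.56 for Pkm (7.41e-06), -1.34 for Tpi1 (0.0186), -0.93 for Pgam2 (0.0172) and -0.85 for Pgm1 (0.0230). Of all probes 2.3% were called lower there, and of the 75 probes in the upper range 12%. Those 75 include Pkm, Pgam2 and Pgm1 themselves, but neither Tpi1 nor Pfkfb1. Spreading out the upper end of the ranks, with the logit of the percentile, likewise gave calls for all 5, where 2.81% of all probes and 12% of the upper 75 were called lower. Centring alone did not, leaving Pfkfb1 at -2.33 (limma adjusted p = 2.59e-04) as the only member called, with 1.28% of all probes called lower.

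The wider pathway was read from 9 lists holding 38 measured genes. Of these, limma called 2 in the deposited values, both lower, Pfkfb1 and Slc16a3, a lactate and proton exporter of glycolytic fibres. Slc16a3 fell from 9.54 ± 0.57 to 8.07 ± 1.03 (SD, n = 8 per group), by 1.47 (limma adjusted p = 0.0201), and its mean percentile from 83.7 to 48.0 (limma adjusted p = 0.0219). The exact permutation test gave Slc16a3 an adjusted p of 0.0530 as deposited, which missed the threshold, and 0.0203 on percentiles. In rats 1 to 4 Slc16a3 differed by -2.08 and in rats 5 to 8 by -0.85. Over all probes limma called 0.85% lower and 5.44% higher, and none of the 38 was called higher. By percentile 2 of the 38 were called, beside 1.19% of all probes lower.

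Of the 5 measured genes of the main line of glycolysis, none was called, 3 differences lay below 0 and the median was -0.29, beside 0.22 over all probes. Besides the members these were Pfkl, the liver-type phosphofructokinase, at -0.29 (adjusted p = 0.798) and Pklr, the pyruvate kinase of liver and red cells, at 0.17 (adjusted p = 0.901). Of the 3 genes of the enzymes that set fructose 2,6-bisphosphate, 1 was called lower and the median was -0.36. For the 7 genes of glycogen metabolism the median was 0.59 and none was called. Among them Ppp1cb, a catalytic subunit of protein phosphatase 1, stood at 1.02 (adjusted p = 0.128), and Gyg1, the glycogenin that primes glycogen, at 0.70 (adjusted p = 0.283). Pgm1 and Gys2, the liver glycogen synthase, were the 2 of 7 with a difference below 0.

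Of the 8 genes of lactate and pyruvate use, 1 was called lower and the median was 0.29. Slc16a7, a second monocarboxylate transporter, stood at -1.02 (adjusted p = 0.382), with 2 control and 4 denervated arrays at the floor. The 4 genes of glucose uptake and its hormones had a median of 0.46, led by Prkag1, a subunit of the energy sensor AMPK, at 0.77 (adjusted p = 0.390), and Irs3 at 0.69 (adjusted p = 0.472). In gluconeogenesis G6pc1, glucose 6-phosphatase, stood at 1.02 (adjusted p = 0.121) and the transporter Slc37a4 at -0.57 (adjusted p = 0.516). The 3 genes of sugar side branches had a median of -0.15, with Khk, ketohexokinase, at -0.38 (adjusted p = 0.748) and Akr1b1, aldose reductase, at 0.19 (adjusted p = 0.862).

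The 3 genes of phosphagen and nucleotide energy lay at 0.70 to 1.21 with a median of 0.73, none called. They included Ampd3, an AMP deaminase, at 1.21 (adjusted p = 0.219), and Ampd1, its muscle form, at 0.73 (adjusted p = 0.340). The 3 transcription factors had a median of 0.31, with Hif1a, the oxygen-regulated factor, at 0.35 (adjusted p = 0.749) and Usf1 at 0.31 (adjusted p = 0.787). Without control rat 6 the median of the glycolysis list was -0.44 and that of the glycogen list 0.41, beside 0.03 over all probes. In rats 5 to 8 the glycolysis median stood at 0.47, beside 0.55 over all probes.

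**Figure D4:**
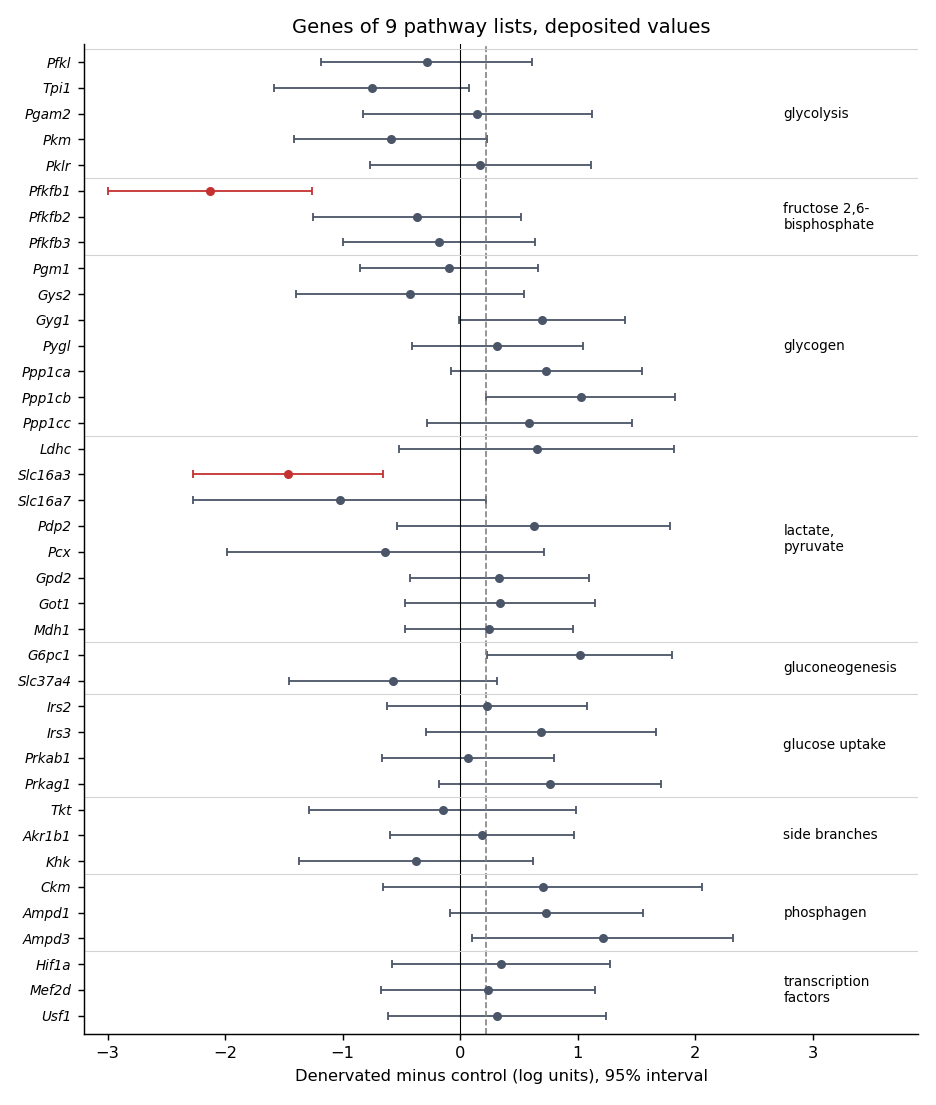
Difference between denervated and control means in log units (horizontal axis, points) with limma 95% intervals (bars) for the 38 measured genes of 9 pathway lists; red marks an adjusted p under 0.05 and the dashed line the median over all probes, 0.22. Only Pfkfb1 and Slc16a3 are marked.

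The spread between rats differed among the members. In control muscle Pfkfb1 had an SD of 0.69, smaller than that of all but 11.2% of probes, and in denervated muscle 1.15, with 79.8% of probes below it. The denervated SD includes the array of rat 7, at 5.04. The other denervated values of Pfkfb1 ran from 6.82 to 8.69, beside 8.40 to 10.47 in control. The SD of Pgm1 went from 0.90 to 0.36, where 9.27% of probes had a smaller SD, and that of Pgam2 from 1.27 to 0.51. The medians over all probes were 0.99 and 0.77. These are descriptions, and the difference in spread was not tested.

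The genes most like each member were sought after removing array medians and group means, by Pearson's r over the 16 arrays among 1003 other probes, which share array scaling and membrane. Differences in spread between arrays and between the sets of rats were not removed. Their part in these correlations was not tested. Pgam2 was followed most closely by Ckm, the muscle creatine kinase (r 0.94, Spearman's rho 0.94), by Pgm1 (r 0.91) and by Plod1, a collagen lysyl hydroxylase (r 0.91). For Pgm1 the closest were Mylk2, which phosphorylates the light chain of fast myosin (r 0.92), Pgam2 and Rab7a (r 0.88). Pgam2 and Pgm1 thus named each other, with r 0.97 among the control and 0.61 among the denervated arrays. Ckm stood at 0.70 (adjusted p = 0.624) after denervation, whereas Mylk2 fell by 1.87 (adjusted p = 4.18e-04) and from a mean percentile of 96.4 to 60.6. For Pkm the closest were Cox6c, a subunit of cytochrome c oxidase (r 0.92), Tpm2, a tropomyosin (r 0.90), and the ribosomal protein Rpl29 (r 0.89).

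Pfkfb1 and Tpi1 had looser company. For Tpi1 the closest were Prdx1, a peroxiredoxin (r 0.70), Rabep2 (r 0.64) and Ahsg (r 0.64). For Pfkfb1 they were Selenow, a muscle selenoprotein (r 0.80, rho 0.44), Or10al4b (r 0.79, rho 0.56) and Bet1 (r 0.78, rho 0.54). The rank correlations of Pfkfb1 were well below Pearson's r. Pfkfb1 and Tpi1 gave r 0.95 over the 8 control arrays and 0.07 over the 8 denervated ones. Denervated rat 7 lay apart for Pfkfb1, at -3.56 from its array median, where the other denervated arrays ran from -1.39 to 0.35. The part of that array in these correlations was not tested. All of these are descriptions over few arrays.

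Markers of muscle and of other cells were read beside these values. Over all probes limma called 5.44% higher and 0.85% lower. The summed levels are sums of log values over a list's probes, and no such sum was taken over other probes. Of 20 fast-fibre markers 4 were measured, and Ckm stood at a mean percentile of 99.6 in control and 99.9 in denervated arrays, as the tissue label implies, while Tpm1, a tropomyosin, lay at the floor in 5 control and 4 denervated samples. Mylk2 was the 1 of the 4 called, lower by limma with the values given above, and Cacna1s, the calcium channel of the T-tubule, stood at -0.03 (adjusted p = 0.976). The summed level of the 4 ran from 33.2 to 45.7 in control and from 35.9 to 41.2 in denervated muscle. Fibroblast markers moved with the groups, with 3 of the 4 measured of 10 called higher. Their summed level was 32.2 to 43.1 in control and 44.7 to 49.3 in denervated muscle, without overlap, and none was at the floor. None of 4 macrophage and leukocyte markers was called, with sums of 26.3 to 32.6 and 26.7 to 33.5. Of 5 nerve and Schwann cell markers 1 was called higher, and of 2 adipocyte markers 1. The sums were 28.7 to 41.5 and 36.4 to 42.7 for nerve, and 9.93 to 15.7 and 13.0 to 18.4 for adipocytes. The 1 slow-fibre marker measured, Casq2, was called higher (7.0046 to 8.83 against 8.41 to 10.59). The liver marker Ahsg, the only 1 of 5 measured, was called lower (8.51 to 10.46 against 6.85 to 9.13), and of 2 endothelial and smooth muscle markers none was called (sums of 10.9 to 19.3 and 13.4 to 19.4). No blood marker was measured. The part of the fast-fibre marker Mylk2 and of these other cells in the fall of Pfkfb1 and in the lower positions of Pkm was not tested.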

How the data were processed

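Total RNA of rat EDL was labelled as cDNA and hybridised to Rat Atlas 1.2 nylon membranes, read with a phosphorimager and Array Vision software and normalised by the authors with linear regression, per the labels. The authors deposited 1 table of values, a score that behaves as a logarithm of unstated base. Background correction is not given in the sources used here.

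Of 1185 probes, 9 of reference genes were left out by their identifiers, as their values were taken to lie on another scale. Probes were named through the platform table and RefSeq gene IDs of GRCr8: 1106 had 1 gene (1099 of them matched by ID), 2 had several and 68 none. A filter (above 0 on at least 8 arrays) removed none. For a gene with several probes the brightest on average entered the lists.

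The main test was limma (version 3.58.1, R 4.3.3; lmFit and eBayes, its prior variance following the mean value except for percentiles; two-sided), with Benjamini-Hochberg adjustment over 1176 probes and a threshold of 0.05. Exact two-sided permutation tests used all 12870 groupings. The number of arrays limits the precision. The procedure was tested on simulated data with independent noise for each probe. Shifts of whole arrays, differences in their spread, the floor and deviations shared by sets of rats were not simulated. Named genes were the members, the genes of each list that were called or else its 2 lowest p-values, and the 3 probes most like each member (at the floor on at most 4 arrays). Pfkfb2, Pfkfb3, Slc16a7, Gys2 and the marker genes were named beyond that rule, after their values were seen. Members, lists and tests were chosen with earlier results of these data known. Alternatives were other scalings, filters, blocks, sets of rats, inclusion of the reference probes, a permutation test and leaving out each array. The logit of ranks, the centred fits by set of rats, the comparisons of Pfkfb1 with 6 probes and the background of 75 upper probes were added after the data were seen. Values of Gapdh, a reference probe, are given apart. Figures were drawn with matplotlib 3.10.9.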

Additional observations from a re-analysis of the deposited data

Results flagged for a closer look

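Among 20 tests for a lone sample (5 members, deposited value and percentile, each group of 8), 2 stood out, where chance flags about 1 in 20 groups. Both are the array of control rat 3 on percentiles. Pgam2 stood there at 95.1, and the gap to the next control array was 0.945 of the group's range. Pgm1 stood there at 87.2, with a gap of 0.829 of the range. That array had the highest floor of the 16, 6.69, and the most probes at it, 206. Its part in these values was not tested.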

How the results depend on the processing

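The fall of Pfkfb1 in deposited values was called under every alternative run, from -2.30 to -1.78 when each array was left out in turn (the latter without denervated rat 7). On percentiles it missed the threshold with 4 arrays a group, at -41.9 (limma adjusted p = 0.0891, rats 1 to 4) and -59.5 (0.0562, rats 5 to 8). The other members depended on the scaling. Quantile normalisation gave calls at -1.34 (Tpi1), -1.56 (Pkm), -0.93 (Pgam2, turned from above 0) and -0.85 (Pgm1). The logit of the percentile gave calls at -1.63, -2.02, -1.29 and -1.02, and for Pkm the exact permutation test called the -5.55 points. In rats 1 to 4, Tpi1 (-1.89) and Pkm (-1.65) were called, also after centring (-1.81 and -1.57), and Pgam2 stood at -0.33 (-0.25 centred). In rats 5 to 8, Tpi1 (0.39), Pkm (0.47) and Pgm1 (0.61) lay above 0, and after centring they stood at -0.11, -0.026 and 0.11. Pgam2 was at -0.062 after centring, with or without a block for sets of rats. Leaving out 1 array gave -0.073 to 0.44 for Pgam2 and -0.29 to 0.061 for Pgm1. The interaction was called on 1 probe after centring, that of Pfkfb1 was -0.41 centred, -17.6 points on percentiles and -0.15 without control rat 6, and that of Pgam2 -1.26 points. The causes were not tested.

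Deviations of same-numbered arrays correlated at 0.059 to 0.193, above 0.1 for 7 of 8 numbers, with 2 of 8 control arrays closest to their own number and 8 of 8 to a number of their own set of rats. The numbers were therefore not taken to pair the arrays one by one, and the sets of rats shared deviations. With the rat number as a replicate block 113 probes were called instead of 74, and 141 after centring, 33 of them lower. In that centred fit Tpi1 (-0.96) and Pkm (-0.80) were called and Pgam2 stood at -0.062. With sets of rats as a block the count was 131 (117 centred), in rats 1 to 4 it was 30 (31 centred) and in rats 5 to 8 139. Leaving out 1 array gave 43 to 98, with the low counts without control rat 5 (49), 7 (45) or 8 (48) or denervated rat 1 (43) or 6 (46). On percentiles 41 probes were called, 72 by exact permutation, 70 with the logit, 8 in rats 1 to 4 and 6 in rats 5 to 8. Among the 38 pathway genes 6 were called after quantile normalisation instead of 2, all lower, beside 27 of all 1176 probes lower. These 6 were the 5 members and Slc16a3. In rats 1 to 4 it was 4, all lower, beside 12 of all probes lower. In rats 5 to 8 it was 1 lower and 2 higher, beside 8 and 131 of all probes. Nylon arrays report no counts, and signal near the floor limits dim probes, but no member was there.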

Other observations

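Gapdh, another enzyme of glycolysis, was present as a reference probe, whose values were taken to lie on another scale. It was left out of every comparison except an alternative fit with the reference probes included, which called 71 probes. The values of Gapdh ran from 7.71 to 25.9 (median 10.7) on the control arrays and from 5.13 to 17.6 (median 5.96) on the denervated arrays. On 2 control and 2 denervated arrays it exceeded 14.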
